A study of Mus musculus with 2 samples.

Results

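Vehicle-only promoter peaks are sites of open chromatin at gene starts that were called in control cells and had no overlapping call after TGFβ. They were chosen by the peak calls of both lists: a vehicle peak belonged here when it shared no base with any TGFβ 2 h peak and came within 1000 bp of the start of a protein-coding transcript. There were 606 such peaks among 17784 vehicle peaks. Of all vehicle peaks 17.6% had no TGFβ 2 h counterpart, and of the 9632 vehicle promoter peaks 6.29% had none. These shares describe the choice itself and carry no test. The peaks lay at 621 genes, which is 2.78% of the 22378 protein-coding genes annotated.

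Chromatin accessibility was mapped by DNaseI-seq in NMuMG, an established line of normal mouse mammary gland epithelial cells. Both groups were starved of serum and insulin for 6 h. One group then received TGFβ1 at 5 ng/ml for 2 h, and the other received the carrier of the ligand, hydrochloric acid with bovine serum albumin (one label names Tris-HCl in its place). Each condition had 1 deposited peak list, so the spread between replicates is unknown, no test between conditions was possible, and every 95% interval below (Wilson) covers the counting of peaks only. A peak that is missing from a list was not called there; this does not show that its signal was absent. The deposited peak score, between 540 and 1000 (the ceiling), ranks peaks within a list. The methods list more mapped reads for vehicle, while the TGFβ 2 h list held more peaks (22600), and the part of depth in the choice was not tested. Of 9 epithelial marker genes, Cdh1, Krt8 and Krt18 had a start peak in both lists, whereas Epcam, Cldn3, Cldn4, Cldn7, Esrp1 and Grhl2 had none in either. Of the markers of other cell types only fibroblast Col1a1, 1 of 6, had a start peak, and 0 of 5 blood, 0 of 4 endothelial and 0 of 5 muscle and nerve markers had one.

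DNase I cuts where nucleosomes have been moved aside, and the start of an active gene is one of the most common such places. Many starts lie in CpG islands, stretches rich in C, G and the pair CG that are open in most tissues, while starts poor in CpG are more often opened in particular cell types. A gene can have several alternative starts, each with its own open site, so the loss of a call at one start is not the loss of all calls at the gene. TGFβ signals through SMAD proteins, which bind DNA weakly at CAGAC and often act beside AP-1, a dimer of Jun and Fos family factors, and in NMuMG cells it drives the epithelial to mesenchymal transition.

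The sequences below show what such promoters look like at the letter level. They were taken from the 12 widest of the 33 peaks at the ceiling score whose genes had no TGFβ 2 h peak at any start, and from genes of the signalling, junction and growth lists described further on, wherever the peak covered a start with at least 40 bases of exon-free sequence upstream of it. Each run ends at the base before the outermost covered start, lies inside the peak and is read 5′ to 3′ along the gene on mm9. Capitals mark any of 15 searched motifs, here GGGCGG (the GC box of Sp and Klf factors), CCAAT (NF-Y), CACGTG (an E-box), CAGAC (SMAD) and AGGGGGC (part of the CTCF motif), each on either strand.
Foxc1 chr13:31898415-31898514 (+ strand): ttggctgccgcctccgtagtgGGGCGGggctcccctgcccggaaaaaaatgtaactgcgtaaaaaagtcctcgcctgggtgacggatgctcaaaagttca
Zfp704 chr3:9610086-9610185 (- strand): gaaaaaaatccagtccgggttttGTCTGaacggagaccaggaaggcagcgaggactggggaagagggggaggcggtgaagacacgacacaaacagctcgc
Camta2 chr11:70501608-70501707 (- strand): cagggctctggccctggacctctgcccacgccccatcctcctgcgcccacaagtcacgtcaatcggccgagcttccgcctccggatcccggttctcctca
Cxcl5 chr5:91188225-91188324 (+ strand): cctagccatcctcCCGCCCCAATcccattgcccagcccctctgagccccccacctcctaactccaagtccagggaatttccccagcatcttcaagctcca
Anxa11 chr14:26661569-26661668 (+ strand): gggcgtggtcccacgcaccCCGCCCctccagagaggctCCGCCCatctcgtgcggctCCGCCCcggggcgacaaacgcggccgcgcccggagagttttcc
Plekha3 chr2:76513238-76513337 (+ strand): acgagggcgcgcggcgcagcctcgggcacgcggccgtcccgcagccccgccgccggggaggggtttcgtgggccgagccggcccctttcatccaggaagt
Endog chr2:30026944-30027012 (+ strand): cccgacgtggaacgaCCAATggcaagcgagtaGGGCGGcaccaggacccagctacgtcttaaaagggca
Gmfb chr14:47441918-47442017 (- strand): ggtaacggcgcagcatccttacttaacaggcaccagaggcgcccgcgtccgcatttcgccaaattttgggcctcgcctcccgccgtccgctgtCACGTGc
Ccnd1 chr7:152125775-152125823 (- strand): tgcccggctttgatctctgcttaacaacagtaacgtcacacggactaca
Grb14 chr2:64860840-64860939 (- strand): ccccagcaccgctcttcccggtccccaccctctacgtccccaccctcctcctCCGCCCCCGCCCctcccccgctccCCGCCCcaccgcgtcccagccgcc
Cldn1 chr16:26371928-26372027 (- strand): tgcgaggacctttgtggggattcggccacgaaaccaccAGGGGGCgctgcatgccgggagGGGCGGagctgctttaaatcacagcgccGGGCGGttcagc
Stat5b chr11:100712039-100712138 (- strand): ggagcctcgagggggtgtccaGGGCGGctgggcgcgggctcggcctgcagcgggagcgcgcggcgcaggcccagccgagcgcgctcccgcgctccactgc
The GC box recurred most. Anxa11 held 3 copies in its 100 bases, Grb14 an adjoining pair and a further one, and in Cxcl5 the GC box ran 1 base into a CCAAT box. Camta2, Plekha3 and Ccnd1 held none of the 15 motifs in these stretches, which says only that those letters are not there.

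Foxc1, a forkhead transcription factor gene of mesenchyme and eye development, had the widest of these peaks, and indeed of all 606. Its vehicle peak was 1966 bp wide (chr13:31897891-31899856), had the ceiling score of 1000 and ran over the only annotated start, while the nearest TGFβ 2 h peak lay 4.39 kb away. That neighbour was weak, with a score of 584 in its own list, and had a vehicle counterpart. Zfp704, a zinc finger gene, likewise had a 1670 bp vehicle peak at the ceiling, and its nearest TGFβ 2 h peak was 34.9 kb away.

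Peaks of the same kind marked Cxcl5, Ctsa and Sema3e. Cxcl5 encodes a chemokine that attracts neutrophils, and its 1028 bp peak was centred 7 bp from a start with the nearest TGFβ 2 h peak 26.9 kb off. Ctsa encodes the lysosomal protease cathepsin A, and it shared 2 vehicle-only peaks with its neighbour Neurl2, of 353 bp and 990 bp, at scores of 652 and 1000. Both fell at alternative Ctsa starts, and the nearest TGFβ 2 h peak to them was 9.37 kb away. Sema3e, which encodes a secreted guidance cue, had a 947 bp peak and no TGFβ 2 h peak nearer than 47.2 kb.

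The other genes among the 12 were Tcfap2a (the present Tfap2a, encoding AP-2α), Camta2, Dnajc18, Anxa11, Plekha3, Endog and Gmfb. Their peaks were all at the ceiling, and the nearest TGFβ 2 h peak lay between 1.70 kb (Plekha3) and 26.8 kb (Dnajc18) away. All but 1 of the 12 covered an annotated start, a count that their choice by width favours. The exception was Tcfap2a, a regulator of epithelial lineages, whose peak was centred 848 bp upstream of its nearest start. That was an inner start of the gene, and the peak midpoint lay in an intron.

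**Figure D1:**
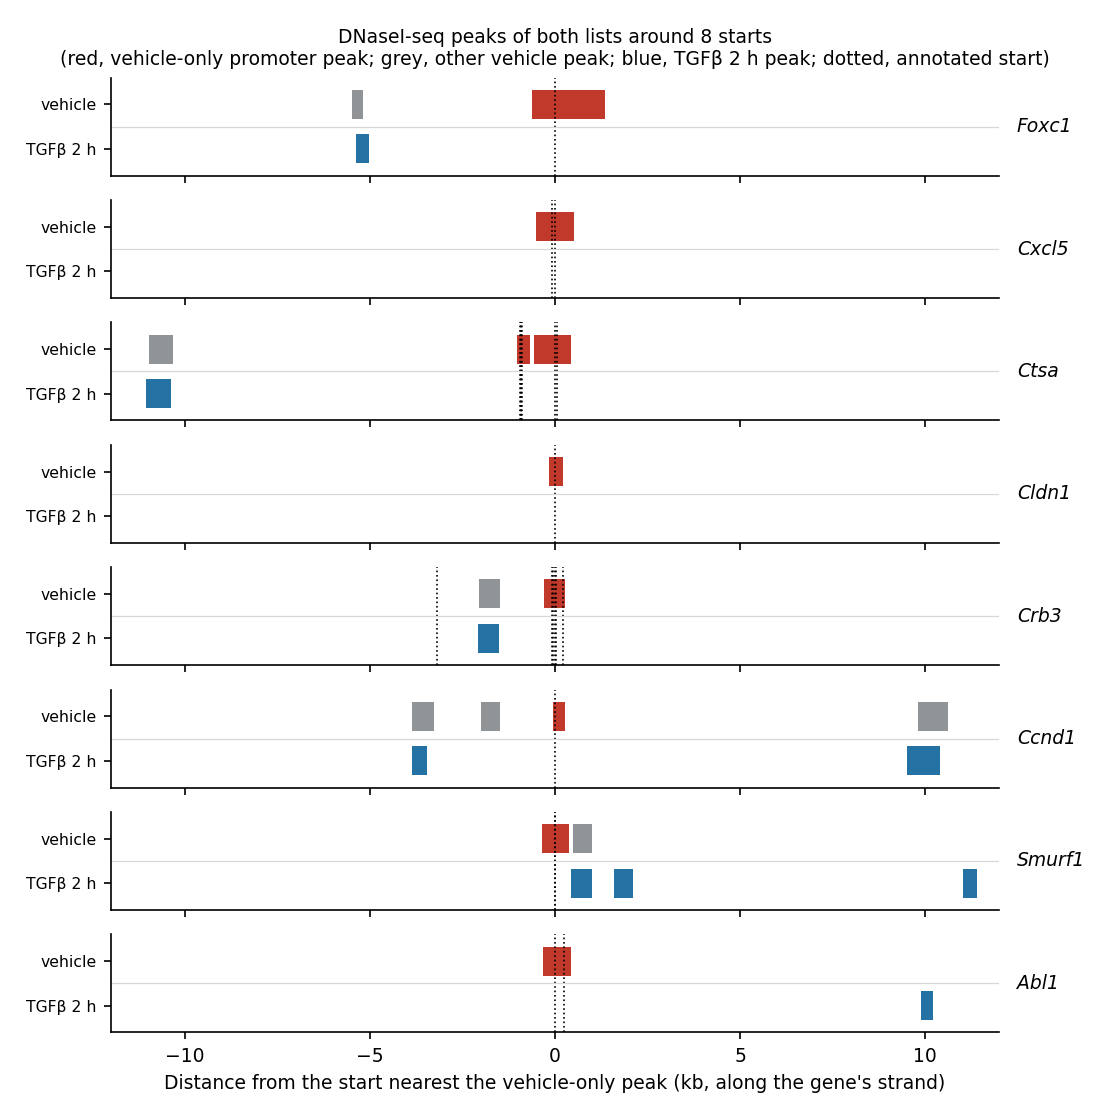
Peaks of the vehicle list (upper row of each panel) and of the TGFβ 2 h list (lower row) within 12 kb of 8 starts, in kb along the gene's strand. Red bars are vehicle-only promoter peaks, grey bars other vehicle peaks, blue bars TGFβ 2 h peaks and dotted lines annotated starts. Cxcl5 and Cldn1 have no TGFβ 2 h peak in the window, whereas at Smurf1 such a peak lies 77 bp from the red bar.

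The scores of these peaks were mostly low. They ranged from 540 to 1000 with a median of 669.5, 51 of 606 (8.42%, interval 6.46 to 10.9) were at the ceiling, and 154 (25.4%) were under 600. Of the 9026 vehicle promoter peaks that did overlap a TGFβ 2 h peak, called shared below, 82.1% were at the ceiling and 1.77% were under 600. Widths were also smaller, with a median of 561 bp against 927 bp. The 804 TGFβ 2 h-only promoter peaks (8.01% of 10043) were narrower still, with a median of 447.5 bp, and their median score was 652.5 on the scale of their own list, which is not comparable with that of vehicle.

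Having a counterpart went with the score. Between scores of 540 and 614 the share of vehicle promoter peaks without a counterpart was 49.0% (188 of 384), between 840 and 999 it was 9.67% (76 of 786), and at the ceiling it was 0.684% (51 of 7460). Away from promoters the same shares were 57.0%, 18.5% and 5.19%. At the ceiling a promoter peak thus lacked a counterpart less often than a distal one did, and since score entered the calls this is a description.

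Position was examined next. A start was covered by 375 of the 606 peaks (61.9%, interval 58.0 to 65.7), against 94.9% of shared promoter peaks and 55.3% of TGFβ 2 h-only ones. The midpoint was a median of 192.5 bp from the nearest start, compared with 97 bp for shared peaks and 184.5 bp for TGFβ 2 h-only peaks. Since score and coverage are linked, peaks of like score were set side by side. The share that covered a start was lower for vehicle-only than for shared peaks in each of 5 score classes, from 51.6% against 72.4% in the lowest to 64.7% against 97.3% at the ceiling. The intervals overlapped in the class from 715 to 839 only.

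**Figure D2:**
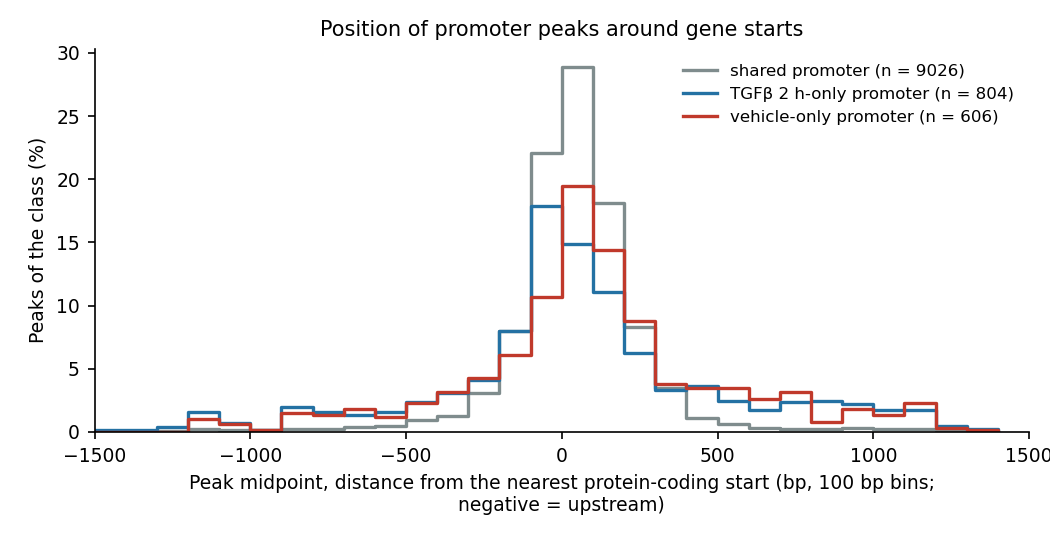
Midpoints of promoter peaks around the nearest protein-coding start, as the percentage of each class in 100 bp bins (x axis in bp, negative upstream). The vehicle-only curve (red) is lower at the start and higher beyond 400 bp than the curve of shared peaks (grey).

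Downstream positions prevailed. Midpoints lay upstream of the start in 34.2% of the vehicle-only peaks, in 37.7% of shared and in 45.1% of TGFβ 2 h-only promoter peaks. By annotation, 174 midpoints (28.7%) were in untranslated exons, 120 (19.8%) in coding exons, 177 (29.2%) in introns and 135 (22.3%) outside genes. Starts of different genes on opposite strands, the arrangement of a bidirectional promoter, were within reach of 33 peaks (5.45%), compared with 12% of shared peaks.

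A start was called CpG-rich when the 500 bp around it had a GC content of at least 50% and at least 0.6 of the CG pairs its base composition would give. That held for 350 of the 606 (57.8%, interval 53.8 to 61.6). The share was 87.6% for shared promoter peaks, 48.9% for TGFβ 2 h-only promoter peaks and 47.3% for all protein-coding starts. Within score classes the share was lower for vehicle-only than for shared peaks throughout, from 53.2% against 60.7% in the lowest to 64.7% against 91.4% at the ceiling. The intervals overlapped in the 3 lowest classes and not in the 2 highest.

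**Figure D3:**
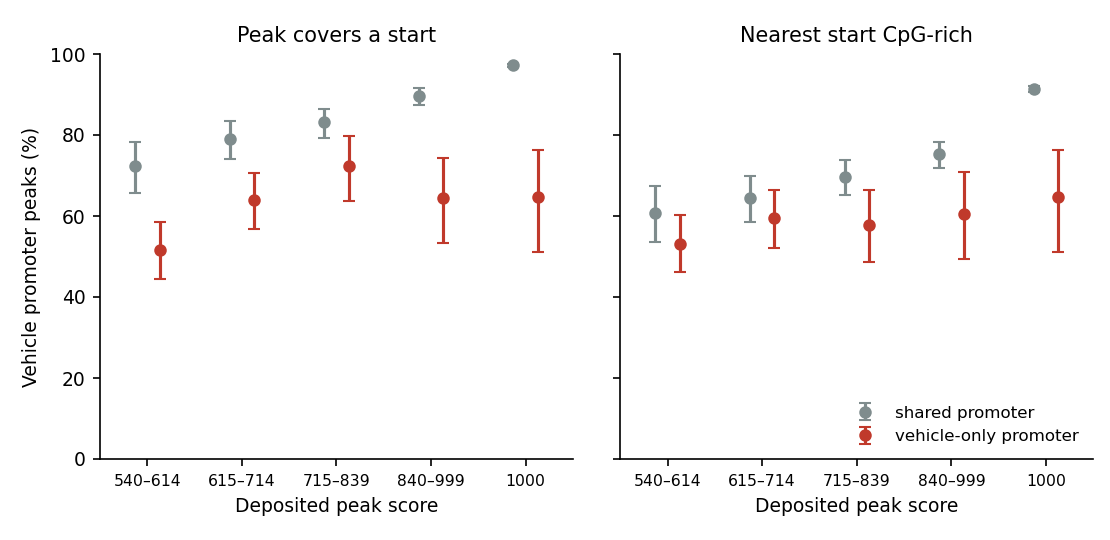
Percentage of vehicle promoter peaks that cover a start (left) and whose nearest start is CpG-rich (right), in 5 classes of deposited score on the x axis. Points are shares and bars their 95% Wilson intervals. Vehicle-only peaks (red) lie below shared peaks (grey) in every class, with overlapping intervals in 1 class on the left and 3 on the right.

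Motifs typical of constitutive promoters were rarer at vehicle-only than at shared promoter peaks. In the 200 bp at the midpoint, the ETS letters CCGGAAG were present in 4.95% of vehicle-only and 13.0% of shared promoter peaks, against 8.59% of windows of that length at all protein-coding starts. The GC box was found in 37.8%, 58.9% and 38.6% of them. The core of the NRF1 motif, bound by an activator of mitochondrial and housekeeping genes, was present in 1.98%, 5.74% and 4.49%. In TGFβ 2 h-only promoter peaks the ETS letters, GC box and NRF1 core were in 4.48%, 36.2% and 1.12%. The low shares were thus not particular to vehicle-only peaks. Vehicle-only midpoints lay farther from the nearest start (median 192.5 bp, 97 bp for shared peaks), and the part of position in these shares was not tested. The score bears on these shares as well. In the lowest score class ETS letters were in 3.19% of vehicle-only and 3.06% of shared promoter peaks, and at the ceiling in 5.88% (interval 2.02 to 15.9) and 14.0%. In the classes between, in rising order, they were in 4.57% and 4.68%, 7.76% and 6.70%, and 5.26% and 13.1%. The GC box was less frequent in vehicle-only peaks in all 5 classes, from 30.9% against 47.4% in the lowest to 43.1% against 60.8% at the ceiling, with overlapping intervals in the 3 classes between.

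AP-1 letters (TGANTCA) set the vehicle-only promoter peaks apart from the TGFβ 2 h-only ones. They were found in 18 of 606 (2.97%, interval 1.89 to 4.65), whereas 11.6% of the 804 TGFβ 2 h-only promoter peaks and 2.83% of shared promoter peaks held them, beside 3.98% of start windows. Distal vehicle-only peaks held them in 10.1%, so the low share was not common to every vehicle-only peak. At CpG-rich starts the shares were 1.71% of vehicle-only and 5.34% of TGFβ 2 h-only promoter peaks, and at other starts they were 4.69% and 17.5%. In each of the 5 score classes the vehicle-only share was below the TGFβ 2 h-only one, with intervals that overlapped in the classes 615 to 714 and 715 to 839, but equal scores of different lists need not mean equal signal. Shared promoter peaks, from the vehicle list itself, held AP-1 letters more often than vehicle-only ones at starts that were not CpG-rich (8.65% against 4.69%), away from starts (10.2% against 3.90%) and in the lowest score class (8.16% against 2.13%), with overlapping intervals in the first and the last of these. The shares were close at CpG-rich starts (2.00% against 1.71%), over starts (2.43% against 2.40%) and at the ceiling (2.19% against 1.96%). In the classes 615 to 714 and 840 to 999 they were 6.83% against 3.43% and 5.21% against 1.32%, with overlapping intervals. From 715 to 839 the vehicle-only share was the higher one (4.85% against 5.17%). The difference from shared peaks was therefore not uniform.

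The following sites are from 6 of the 8 highest-scoring peaks with AP-1 letters. Each line gives the site in capitals with 10 bases on either side, along the strand of the nearest gene on mm9, to show which form of the site was present.
Lrp1 chr10:127020878-127020904 (- strand): accggtccgaTGAGTCAgcctcatgcg
Myo18a chr11:77580231-77580257 (+ strand): gacctgacagTGAGTCAcgcggcgctg
Phlda2 chr7:150688752-150688778 (- strand): tcccggcccgTGAGTCAcgaggggcag
Pde4d chr13:110693294-110693320 (+ strand): cggccgcagcTGATTCAttcgcttcgc
Tigit chr16:43664587-43664613 (- strand): gggaggggacTGACTCAtcagaaatac
Nek10 chr14:15696588-15696614 (+ strand): ccgggcatggTGACTCAgtcctttaat
Lrp1, an endocytic receptor gene, Phlda2, an imprinted growth regulator, and Nek10, a kinase gene, are among them. The site lay 375 bp upstream of the nearest start in Lrp1 (position −375), at −319 in Phlda2 and at −1135 in Nek10, while in Myo18a it lay 6 bp inside the transcript.

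**Figure D4:**
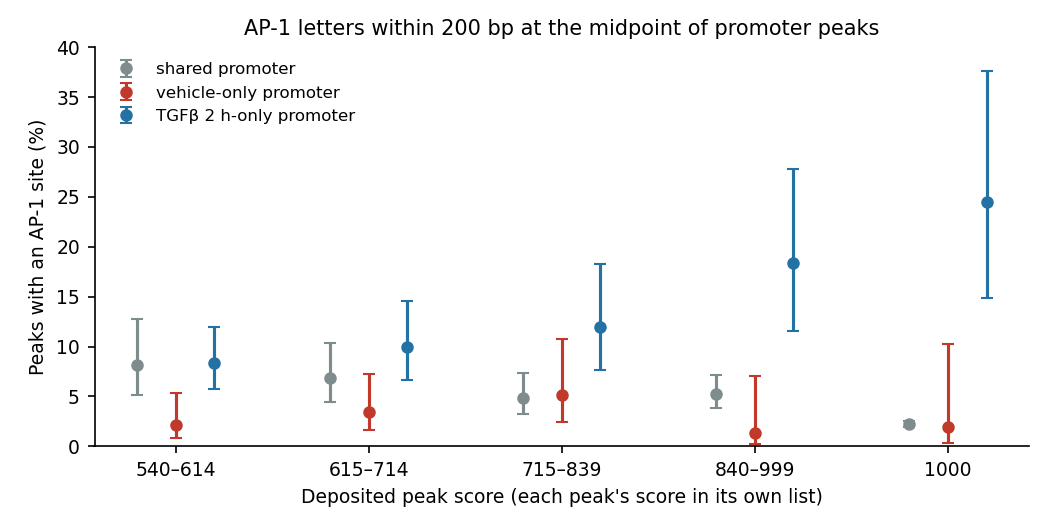
Percentage of promoter peaks with the letters TGANTCA in the 200 bp at the midpoint, by deposited score in the peak's own list (x axis), for shared (grey), vehicle-only (red) and TGFβ 2 h-only (blue) promoter peaks. Points are shares and bars their 95% Wilson intervals. The TGFβ 2 h-only share runs from 8.31% in the lowest class to 24.5% at the ceiling, and the vehicle-only share stays at or under 5.17%.

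The other searched letters gave the following shares. CAGAC, the SMAD element, was present in 39.1% of vehicle-only promoter peaks, 46.6% of TGFβ 2 h-only promoter peaks and 36.9% of start windows. CACGTG was in 5.78%, 4.85% and 5.20%, the TEAD letters GGAATG in 8.91%, 7.71% and 7.84%, and AACCNGNTT, letters bound by epithelial grainyhead-like factors (GRHL), in 2.15%, 0.746% and 1.32%. Shared promoter peaks held these letters in 32.3%, 5.95%, 5.92% and 0.886%, in that order. The GRHL count rests on few peaks. Against shared promoter peaks and start windows, CCAAT was in 13.5% of vehicle-only promoter peaks, 20.6% and 24.5%, the YY1 letters AAGATGG in 2.64%, 4.91% and 5.32%, and the TATA box letters TATAAA in 2.64%, 1.91% and 6.67%. AGGGGGC was in 8.42%, 10.6% and 8.58%, the forkhead letters TGTTTAC in 1.16%, 1.09% and 1.65%, the CRE letters TGACGTCA in 0.825%, 1.85% and 1.64%, and the SMAD palindrome GTCTAGAC in 1 vehicle-only peak. In TGFβ 2 h-only promoter peaks the CCAAT, YY1 and TATA box letters were in 16.3%, 2.36% and 3.86%. There the AGGGGGC, forkhead and CRE letters were in 8.96%, 1.99% and 0.995%. Start windows are centred on the start and peak windows on the midpoint, so their positions differ.

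For each gene it was then asked whether TGFβ 2 h peaks were present at its starts. Starts no more than 2000 bp apart were joined into a start group, since one peak can serve them together. Of the 621 genes, 399 (64.3%, interval 60.4 to 67.9) had no TGFβ 2 h peak within 1000 bp of any start, 167 (26.9%) had one at the same start group and 55 (8.86%) had one at another start group only. These shares depend on the overlap rule: 35.7% of genes had a TGFβ 2 h start peak here, 14.1% when a gap of up to 1000 bp counted as shared and 62.6% when 50% of both peaks had to overlap. Set against all genes, 406 had a vehicle peak and no TGFβ 2 h peak at their starts, 535 had the reverse and 9695 had both.

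Genes with several start groups were then compared with those that had a single one. Among the 220 genes with over 1 start group, 111 (50.5%, interval 43.9 to 57.0) had no TGFβ 2 h peak at any start, compared with 288 of the 401 genes with a single group (71.8%, interval 67.2 to 76.0). More start groups also give more positions at which a peak can be counted. A gene with a single group cannot have a peak at another group, so these shares are not like for like. At the same start group, TGFβ 2 h peaks were present in 24.5% (interval 19.3 to 30.6) of genes with over 1 group. For genes with a single group it was 28.2% (interval 24.0 to 32.8), and the intervals overlapped. Where the vehicle-only peak was at the outermost group (147 genes), TGFβ 2 h peaks were at another group only in 24 (16.3%, interval 11.2 to 23.1). Where the vehicle-only peak was at inner groups only (73 genes), TGFβ 2 h peaks were at another group only in 31 (42.5%, interval 31.8 to 53.9). Genes with TGFβ 2 h peaks at both the same and another group are not in these counts. Inner start groups held 36.2% of the vehicle-only peaks at genes with several groups, 22.9% of the shared and 53.2% of the TGFβ 2 h-only promoter peaks.

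**Figure D5:**
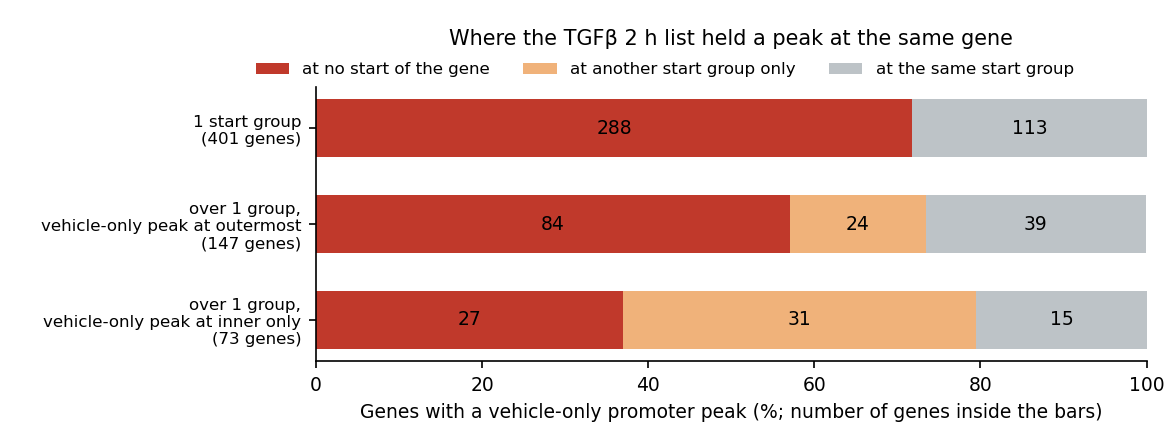
Genes with a vehicle-only promoter peak, split by number of start groups and by the group that held the peak (rows), as percentages on the x axis with gene numbers inside the bars. Red, no TGFβ 2 h peak at any start; orange, at another start group only; grey, at the same start group. The orange part is wider where the vehicle-only peak sits at inner groups only (31 of 73) than at the outermost group (24 of 147).

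Abl1, which encodes a tyrosine kinase, is an example of an inner start. Its vehicle-only peak at chr2:31615127-31615894 scored 971 and covered an inner start, while the TGFβ 2 h peak at its other start group scored 1000, had a vehicle counterpart and was 70.8 kb away. Lrp1 gave the same arrangement at an inner start, with the outer peak 37.1 kb away, and so did Jmjd1c, of a histone demethylase family, with a distance of 29.3 kb. Outermost starts were left without a call at Arhgap23, a gene of a GTPase-activating protein (33.3 kb), and at Lrrfip1 (53.5 kb). Both peaks were at the ceiling, and in both genes an inner start had a TGFβ 2 h peak at the ceiling. Dnm1 and its opposite neighbour Ciz1 shared a vehicle-only peak, with the TGFβ 2 h peak at a Ciz1 start 9.06 kb away. At Zbtb7b and L3mbtl3 the other peak was at a start of the same start group, 1.46 kb and 1.38 kb away, and in L3mbtl3 that peak was itself TGFβ 2 h-only.

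Neighbouring peaks were split into a near and a far set at a chosen gap of 1000 bp. The gap to the nearest TGFβ 2 h peak had a median of 9.07 kb with quartiles of 1.22 and 33.2 kb. It was at most 100 bp for 29 peaks (4.79%), at most 1000 bp for 148 (24.4%) and at most 5 kb for 242 (39.9%). For distal vehicle-only peaks the share within 1000 bp was 7.06%, and within 5 kb it was 20.1%. For TGFβ 2 h-only promoter peaks, measured to the nearest vehicle peak, the shares were 18.4% and 27.5%.

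In the near set the vehicle-only call was usually a side peak of a shared promoter. Of the 148 peaks within 1000 bp of a TGFβ 2 h peak, 129 (87.2%, interval 80.8 to 91.6) were beside one that overlapped another vehicle peak. That shared neighbour covered a start in 101 of the 129 and was wider than the vehicle-only peak in 101 of the 129. The side peak itself covered a start in 36 (27.9%), had a median width of 387 bp and lay a median of 185 bp away. By contrast, of the 458 peaks over 1000 bp from any TGFβ 2 h peak, 328 (71.6%) covered a start, and their median width was 600.5 bp.

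Among genes of TGFβ signalling, 3 of 42 had a vehicle-only promoter peak (7.14%, with 2.78% over all protein-coding genes). A member needs a vehicle start peak, and among genes that had one the share was 8.82% (3 of 34) here and 6.15% over all genes. Smurf1, which encodes a ubiquitin ligase that restrains BMP and TGFβ signalling, had a 710 bp peak at a score of 746 over its start, 77 bp from a shared peak at the ceiling. Tgfb1, the gene of the added ligand, had one at 543, near the lowest score, inside a coding exon 1134 bp past its start, 0.398 kb from a shared peak. Ltbp2, of the latent TGFβ-binding family, had one at 721, and no TGFβ 2 h peak was called at any of its starts.

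Epithelial junction genes numbered 3 of 41, and 3 of the 19 with a vehicle start peak (15.8%, with 6.15% over all genes). Cldn1, a tight junction claudin gene, had its only vehicle peak within 50 kb over its single start (chr16:26371700-26372100, score 657), and the nearest TGFβ 2 h peak was 185 kb away. Crb3, of the apical polarity complex, had a peak of 570 bp at a score of 794 over its inner start group, and a shared peak lay 1.22 kb away, out of reach of the starts. At Krt8, a simple epithelial keratin gene, the vehicle-only call was 1076 bp inside the gene at a score of 549, with a shared peak at the ceiling 0.408 kb away. The list of mesenchymal genes had 0 of 37. Of these, 16 had vehicle start peaks, among them Fn1, Snai1, Snai2, Zeb1 and Vim, and 0 of 16 allows a share of up to 18.8%, so it cannot be told from the 6.15% over all genes.

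In the lists of growth, cycle and lineage genes the peaks were again either isolated or side peaks. Ccnd1, the cyclin D1 gene, had a 332 bp peak at a score of 815 over its single start, and no TGFβ 2 h peak was closer than 3.40 kb. A further vehicle peak there, from −1998 to −1474 bp and at the ceiling, overlapped no TGFβ 2 h peak either and was outside the 1000 bp limit. Cdkn1a, which encodes the cell cycle inhibitor p21, had a 1086 bp peak at 631 that lay 0.161 kb from a shared peak. Cell cycle genes thus gave 2 of 42, and 2 of the 33 with a vehicle start peak (6.06%, with 6.15% over all genes).

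Genes of insulin and growth factor signalling gave 5 of 53, and 5 of the 46 with a vehicle start peak (10.9%, with 6.15% over all genes). Grb14, whose protein binds the insulin receptor, had a 987 bp peak over its start at a score of 797, and the nearest TGFβ 2 h peak was 26.6 kb away. Akt2, a kinase gene downstream of the insulin receptor, had a TGFβ 2 h peak at another start group, 15.1 kb away. Pik3ca and the phosphatase genes Dusp1 and Dusp4 had vehicle-only peaks within 0.102, 0.087 and 0.099 kb of a shared peak at the ceiling.

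Lineage factors gave 4 of 29, namely Tcfap2a (above), Stat5b, Nfib and Runx1. Of the 14 lineage factors with a vehicle start peak these were 28.6%, with 6.15% over all genes. Stat5b, which acts downstream of prolactin, had a 1084 bp peak at 594 over a start, with the nearest TGFβ 2 h peak 6.45 kb off. Nfib and Runx1 had peaks 0.051 and 0.681 kb from a shared one. AP-1 and related basic leucine zipper genes gave 3 of 19, and 3 of the 14 with a vehicle start peak (21.4%, with 6.15% over all genes). Among these, Maf had a vehicle-only peak at a score of 687 beside a shared peak. Mafg had one at 658 with a TGFβ 2 h peak at its other start group. Jun, Junb, Jund, Fos, Fosb, Fosl1 and Fosl2 had vehicle peaks at a start and no vehicle-only one, a set too small to set against the 6.15% over all genes.

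Over these 7 lists 20 genes had a vehicle-only promoter peak. TGFβ 2 h peaks were at no start in 8 of them, at another start group in 2 and at the same start group in 10. Each list gave at most 5 genes, and 6.15% of all genes with a vehicle start peak had a member, so the counts are too small to rank the lists.

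Gene families were examined next. Among genes with a vehicle start peak, the share with a vehicle-only one was 0.709% for the mitochondrial respiratory chain and ribosome (1 of 141, Uqcr10) and 1.72% for RNA polymerase, splicing and translation genes (2 of 116, Eif1b and Hnrnpl). It was 22.0% for homeobox, Fox, Sox, Pax, Tbx and Wnt genes (9 of 41), 15.9% for chemokine, interleukin and interferon genes (7 of 44) and 15.4% for ion channels (4 of 26). Over all genes with a vehicle start peak it was 6.15%. In the last 3 families, TGFβ 2 h-only promoter peaks were at 11 of 43, 9 of 46 and 12 of 33 genes with a TGFβ 2 h start peak. Over all genes they were at 792 of 10230, and in the first 2 families at 4 of 144 and 3 of 118. The high shares were thus not particular to vehicle-only peaks, and they rest on few genes. The genes named in this and the next paragraph were picked after their values were seen.

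Among the 9 developmental genes were Dlx1, Foxc1, Foxn3, Hoxa3, Pax3, Six4, Sox2 and Wnt9a. Sox2, a pluripotency and neural factor gene, had an 863 bp peak at 830 over its start, and the nearest TGFβ 2 h peak was 136 kb away. Dlx1 (700) and Pax3 (642) were also without a TGFβ 2 h peak at their starts, and Six4 had a side peak 0.444 kb from one. The immune genes were Cxcl3, Cxcl5, Ifi203, Ifit2, Il13ra1, Il17rc and Il17re. Cxcl3 and Cxcl5 are neighbours, and Cxcl3 had a 781 bp peak at 593 with the nearest TGFβ 2 h peak 53.7 kb away. Hcn2, Kcna7, Kcnj11 and Scn1a were the ion channels, none with a TGFβ 2 h peak at a start. Replication-dependent histone genes gave 4 of the 37 with a vehicle start peak (10.8%, with 6.15% over all genes). These were Hist1h3a, Hist1h3g, Hist1h4a and Hist1h4j, and all had a TGFβ 2 h peak at a start. Zinc finger genes gave 20 of the 290 with a vehicle start peak (6.90%), of which 15 had no TGFβ 2 h peak at a start, and both olfactory receptor genes with a vehicle start peak, Olfr571 and Olfr9, were members. Over all 621 genes with a vehicle-only promoter peak, 64.3% had no TGFβ 2 h peak at a start, and these family counts are too small to set against it.

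Among the remaining lists, solute carriers gave 11 of 162 (6.79%), ubiquitin ligases and proteases 10 of 214 (4.67%) and small GTPase regulators 7 of 107 (6.54%), close to the 6.15% of all genes with a vehicle start peak. By chromosome, the share of vehicle promoter peaks without a counterpart ran from 4.70% on chromosome 4 (interval 3.29 to 6.67) to 10.6% on chromosome 3 (interval 8.07 to 13.7). Over all chromosomes it was 6.29%. These 2 chromosomes were picked as the extremes, and the intervals take no account of that choice.

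More than 1 vehicle-only promoter peak occurred at 22 genes. Dlgap5, of the mitotic spindle, had 3 narrow ones of 101, 277 and 89 bp on both sides of its start, at scores of 571, 564 and 647, with the nearest TGFβ 2 h peak 43.4 kb away. Pfn1, the profilin gene, had a 1498 bp peak at 993 over its start and a 122 bp one at 648, and the nearest TGFβ 2 h peak was 0.380 kb from the wider of them. Cc2d2a, a gene of the ciliary transition zone, had them at 2 of its 3 start groups, at scores of 541 and 1000. Gm5148, a predicted gene, had a narrow and a wide one.

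Within 50 kb the vehicle-only promoter peaks had a median of 2 TGFβ 2 h peaks (0 to 13), and 112 (18.5%) had none. TGFβ 2 h-only peaks were absent within that distance of 323 of the 606 (53.3%), and no peak had more than 5. Those with 5 were at Spred2, Slc50a1, 5730469M10Rik, Bin3 and Lif. Spred2 encodes an inhibitor of the Ras and ERK pathway, and its vehicle-only peak, at 983, was 0.766 kb from a TGFβ 2 h-only peak. Lif encodes a cytokine, and its peak, at 630, was 3.27 kb from one.

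At the edge of the overlap rule the choice was a matter of few bases. The nearest TGFβ 2 h peaks to any member were at Dcaf12l2, where both peaks touched with a gap of 0 bp, at Mfsd6 (2 bp), Tomm20 (14 bp), Ube2f (18 bp) and Fam98c (49 bp). On the other side, the vehicle promoter peaks of Slc19a1, Pnpla6, Smc1a, Clybl and Ufsp1 overlapped TGFβ 2 h peaks by 7, 37, 38, 41 and 43 bp and were counted as shared.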

How the data were processed

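DNaseI-seq reads were mapped to mm9 by the authors and taken through their ATAC-seq pipeline with DNaseI options that are not given in the sources used here. Per the labels, MACS2 2.1.2 called the peaks. The deposited lists hold peak positions and a whole-number score by the authors, from 540 to 1000, whose scale is not stated. Identical intervals (70449 rows for vehicle, 68542 for TGFβ 2 h) were collapsed, giving 17784 and 22600 peaks. Peaks were compared with Python 3.11.15 and numpy 2.4.6 at a minimum overlap of 1 bp, starts were 46035 positions of GENCODE M1 protein-coding transcripts, and sequence was NCBIM37. Wilson intervals came from scipy 1.17.1. Motifs were searched on both strands. Interval code was tested on simulated data. Neither list gives read depth, so no value was scaled by it. Members and gene lists were chosen with earlier results of these data known. Named were the 12 highest-scoring peaks at genes without a TGFβ 2 h start peak (33 tied at the ceiling, so the widest of these), all genes of 7 listed sets, the genes with most members, the peaks nearest the overlap limit, the 8 highest-scoring with a TGFβ 2 h peak at another start, and the 5 with most TGFβ 2 h-only neighbours. A few genes that this rule covers are not reported here. Samples were grouped by title. Alternatives covered overlap, window, starts, score, width, list length and chromosome X.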

Additional observations from a re-analysis of the deposited data

How the results depend on the processing

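Each of 7 values was recomputed under 8 alternatives, and of these 56 results 23 moved, and 33 stayed within 1 counting interval or, for counts, within 1.5 times. The values as reported were 606 peaks, 621 genes, 35.7% of the genes with a TGFβ 2 h peak at any start, 61.9% of peaks covering a start, 39.9% with a TGFβ 2 h peak within 5 kb, 57.8% at a CpG-rich start and 85.1% at an outermost start. Counts within that limit still ranged from 458 peaks at 460 genes (TGFβ 2 h peak within 1000 bp counted as shared) to 884 at 905 (lists of equal length), with 747 at 827 for starts of all transcripts. Under the first of these, 14.1% of genes had a TGFβ 2 h start peak, 71.6% of peaks covered a start, 20.5% had a TGFβ 2 h peak within 5 kb and 52.2% were at a CpG-rich start. When a counterpart had to overlap by 50% of both peaks, there were 1026 peaks at 1072 genes, and the shares in that order were 62.6%, 68.6%, 64.5% and 65.6%. These 2 settings remove or add peaks beside TGFβ 2 h peaks by construction. With a 500 bp window 27.2% of genes had a TGFβ 2 h start peak, 71.7% of peaks covered a start and 81.3% were at an outermost start. With starts of all transcripts 49.7% were CpG-rich and 81.0% outermost. At the ceiling score alone 51 peaks at 56 genes were left, 64.7% at a CpG-rich start and 88.2% at an outermost start. Without peaks under 150 bp 66.1% covered a start. With the TGFβ 2 h list shortened to the length of the vehicle list, 26.9% of genes had a TGFβ 2 h start peak, 68.4% of peaks covered a start and 29.6% had a TGFβ 2 h peak within 5 kb. For these last settings the cause was not tested. Leaving out chromosome X moved none of the 7. Limits: 1 list per condition gives no replicate spread, the score is not comparable between lists, and promoter peaks of the lowest score class lacked a counterpart in 49.0% against 0.684% at the ceiling. No paired analysis was possible because vehicle and TGFβ 2 h are represented by a single list each.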
